A study of Mus musculus with 66 samples.

Results

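The genes described here are 10 immediate early and CCAAT/enhancer binding protein (CEBP) transcription factors, Fos, Fosl1, Jun, Junb, Atf3, Egr1, Cebpb, Cebpd, Myc and Mafk, out of 8251 genes named on the later of 2 array versions. They were chosen by earlier results on these same arrays, namely their levels at 12 h and the low levels of Cebpb and Mafk at 3 to 4.5 d, so their values at 12 h and at 3 to 4.5 d, and the step from 12 h to 1 d, are given as a description, with no test. Each gene was followed through its brightest probe set (the group of probes that reads 1 transcript) annotated to it alone, by the mean over 54 arrays. The series measured total RNA of mouse gastrocnemius, a calf muscle, without injury and at 26 times after cardiotoxin, a peptide of snake venom that kills muscle fibres, was injected; such muscle regrows from satellite cells. The untreated controls came from mice 8 weeks old, and 10 array labels give the injection as 100 ul at 10 uM. On the later version (named Av2 in the labels) there were 2 arrays each for the control and for 12 h, 1, 2, 3, 3.5, 4, 4.5, 5, 5.5, 6, 6.5, 7, 7.5, 8, 8.5, 9, 9.5, 10, 11, 12, 13, 14, 16, 20, 30 and 40 d. The earlier version (named A) held 12 arrays, 2 each for the control, 12 h, 1, 2, 4 and 10 d. Not given in the sources used here is the strain, genotype or sex of the mice, or the age of the injected ones, and no control was injected with a carrier alone, so the needle and the toxin cannot be told apart. The labels do not say that the 2 arrays of a time came from separate animals, so all p-values measure the spread between arrays only. The 2 later arrays share the number in their sample code at 1, 4, 4.5, 5, 5.5, 11, 12, 13 and 14 d. They differ there in letters only (LL and RL), as do the earlier arrays of 1 and 4 d. Whether such arrays came from 1 animal is not given.

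Immediate early genes are transcribed within minutes of a stimulus because the proteins that switch them on are already present in the resting cell. Fos and Fosl1 pair with Jun or Junb to form AP-1, a leucine zipper dimer that binds DNA; Atf3 is a stress-induced zipper protein that also pairs with Jun proteins, and Egr1 is a zinc finger factor switched on by growth factor signals. Cebpb and Cebpd are zipper factors of the acute phase response and of myeloid cells. Myc pairs with Max and drives growth and ribosome making, and Mafk is a small Maf protein without an activation domain that pairs with Nfe2, Nrf2 or Bach1. In injured muscle, such factors are known from the fibres and satellite cells as well as from the neutrophils and macrophages that enter, and whole muscle does not separate them. In these bulk samples fewer cells of a type and less RNA per cell cannot be told apart.

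The 250 bases before the transcription start, from RefSeq on the mouse build GRCm38.p6, were at hand for 6 of the 10 genes (Fos, Jun, Junb, Atf3, Cebpb and Mafk). The promoters of 4 of them are shown because these genes took the courses that the results below contrast: Fos, high early and less high later; Jun, whose level moved little; and Cebpb and Mafk, high early and then below the controls. Capitals mark matches of the motifs searched, each on both strands.
Fos, chr12:85473640-85473889, plus strand: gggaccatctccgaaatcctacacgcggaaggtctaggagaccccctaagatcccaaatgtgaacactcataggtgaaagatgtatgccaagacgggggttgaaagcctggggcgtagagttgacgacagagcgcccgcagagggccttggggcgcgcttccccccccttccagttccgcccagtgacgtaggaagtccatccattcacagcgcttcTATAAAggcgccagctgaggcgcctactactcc
Jun, chr4:95052223-95052472, minus strand: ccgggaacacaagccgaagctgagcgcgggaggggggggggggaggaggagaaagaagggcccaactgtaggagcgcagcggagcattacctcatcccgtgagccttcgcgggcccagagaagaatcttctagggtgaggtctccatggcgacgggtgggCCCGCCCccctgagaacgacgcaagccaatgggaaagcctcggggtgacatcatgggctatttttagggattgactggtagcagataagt
Cebpb, chr2:167688665-167688914, plus strand: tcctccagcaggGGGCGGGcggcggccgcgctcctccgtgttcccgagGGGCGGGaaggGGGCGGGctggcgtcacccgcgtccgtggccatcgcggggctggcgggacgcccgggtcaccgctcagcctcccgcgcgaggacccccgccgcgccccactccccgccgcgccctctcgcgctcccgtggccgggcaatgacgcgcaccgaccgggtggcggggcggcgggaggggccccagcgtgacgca
Mafk, chr5:139791286-139791535, plus strand: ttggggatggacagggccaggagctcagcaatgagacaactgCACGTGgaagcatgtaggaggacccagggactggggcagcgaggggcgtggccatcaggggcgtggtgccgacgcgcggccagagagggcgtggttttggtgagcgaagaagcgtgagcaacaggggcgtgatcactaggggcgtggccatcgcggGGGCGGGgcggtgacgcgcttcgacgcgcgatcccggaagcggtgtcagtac
The capitals in Fos are a TATA box (TATAAA), 33 bases before the start. Those in Jun are an SP1 box (GGGCGGG) read on the opposite strand, 90 bases before the start. Cebpb holds 3 SP1 boxes, 238, 202 and 191 bases before its start, and its window is the richest in G and C of the 6 at 81.6%, against 58.4% in Fos, 61.2% in Jun, 65.2% in Atf3, 66.4% in Junb and 67.2% in Mafk. Mafk holds an E box (CACGTG) at 208 and an SP1 box at 52 bases before its start. An SP1 box stood in 4 of the 6 windows, the other being Atf3 with 3 matches, of which those starting 180 and 176 bases before its start overlap, and in 23.40% of 32851 mouse promoters of that length. A TATA box stood in 1 of 6 and in 12.37% of all promoters, and an E box in 1 of 6 and 6.02%. The AP-1 site (TGANTCA, in 6.75% of all promoters), the cAMP response element (TGACGTCA, 1.55%), the CEBP site (TTGCNNAA, 9.56%) and the CArG box bound by serum response factor (1.47%) were in none of the 6 windows as spelled. These are matches of letters, not measured binding.

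The values are the deposited intensities on a linear scale. For fits, values under a floor (64.7 on the later and 646.8 on the earlier version) were raised to it and log2 taken; a change is a difference of mean log2 values with its standard error (SE), and a call is a p under 0.05 from limma, adjusted by the Benjamini-Hochberg method over all 11997 or 4742 probe sets tested. On the later version 76.4 to 83.4% of probe sets stood above the floor, against 26.4 to 28.5% on the earlier. All 10 brightest probe sets were tested on the later version. The 3' to 5' signal ratio of the beta-actin control was 0.018 to 0.233 on 8 arrays of the later version, among them 12 h replicate 2 and all arrays of 1, 2 and 4 d, and at least 0.571 on the rest; on the earlier version it was 0.768 to 1.203 on all 12. The ratio of the Gapdh control was 0.162 or lower on 9 later arrays between 9.5 and 40 d, and 0.314 or higher on the rest. The 2 arrays of 12 h correlated at 0.903 on the later and 0.805 on the earlier version (log2 values), against 0.960 for the later controls. The muscle was bright in fibre markers, with a summed intensity of 373682 to 461201 over 16 genes in the controls, of which Myh2 alone was at the floor.

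Among the AP-1 genes, 3 of the 4 subunits were many times higher within 12 h of injury, and Jun was the exception. Fos read 570 and 501 on the 2 controls, 4765 and 5534 at 12 h, 2294 and 2518 at 1 d, and 2638 and 2426 at 2 d. All 6 arrays lay above both controls. Fos was 9.60-fold over control at 12 h and rose by 2.17 log2 (SE 0.54, adjusted p = 0.0018) at 1 d and 2.24 (adjusted p = 0.0012) at 2 d. Fosl1, the Fos relative with a slower course, read 69 and 43 on the controls, where replicate 2 was under the floor, then 1448 and 2127 at 12 h, 1226 and 1993 at 1 d, and 795 and 612 at 2 d. Among the 10 brightest probe sets it had the largest log2 rise at both later times, 4.55 (SE 0.49, adjusted p = 9.4e-09) at 1 d and 3.39 (adjusted p = 1.2e-06) at 2 d. With the mean over each gene's probe sets, Junb rose more at 2 d (3.53). Junb, an AP-1 subunit that can oppose Jun, read 497 and 426 on the controls, 5235 and 4032 at 12 h, 3723 and 2009 at 1 d, and 2283 and 1784 at 2 d. Its rise was 2.57 (SE 0.38, adjusted p = 2.3e-06) at 1 d and 2.13 (adjusted p = 3.1e-05) at 2 d. Jun itself read 910 and 636 on the controls, 1018 and 997 at 12 h, 1421 and 871 at 1 d, and 880 and 719 at 2 d. Its 12 h arrays lay just above both controls, but those of 1 and 2 d overlapped them. The change was 0.41 (SE 0.24) at 12 h, 0.55 (SE 0.24, adjusted p = 0.079) at 1 d and 0.06 (adjusted p = 0.93) at 2 d. The 1 d change of Jun passed in 3 of 14 alternatives, without control replicate 1, without 1 d replicate 2 and with 30 and 40 d as the reference (0.62 to 0.90, adjusted p down to 0.011), and was as low as 0.19 without 1 d replicate 1.

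Among the brightest probe sets, Atf3 and Egr1 had the largest differences at 12 h and 1 d after Fosl1. With the mean over each gene's probe sets, Junb (4.01) stood above Atf3 (3.83) at 1 d. Atf3 read 323 and 427 on the controls, 6853 and 5254 at 12 h, 3730 and 6054 at 1 d, and 1713 and 1683 at 2 d, that is 16.2-fold over control at 12 h. The rise was 3.68 (SE 0.36, adjusted p = 1.6e-09) at 1 d and 2.19 (adjusted p = 9.1e-06) at 2 d, and the fall from 1 to 2 d passed as well (-1.48, SE 0.36, adjusted p = 0.010). That fall was lost in 4 of 13 alternatives, without 1 d replicate 2 or either 2 d array and with the mean of its probe sets (adjusted p up to 0.11). Against the 30 and 40 d arrays in place of the controls, the Atf3 rise was 2.21 at 1 d, and at 2 d it was 0.72 and did not pass (adjusted p = 0.070). Egr1 read 1013 and 358 on the controls, 11998 and 7775 at 12 h, 2733 and 11569 at 1 d, and 2463 and 1476 at 2 d. Its controls and its 1 d arrays were far apart, yet the 6 injured arrays were all above the higher control. Egr1 rose by 3.22 (SE 0.43, adjusted p = 4.3e-07) at 1 d and 1.66 (adjusted p = 0.0024) at 2 d, and fell by 1.56 from 1 to 2 d (SE 0.43, adjusted p = 0.027). The 2 d call ended without control replicate 2 or 2 d replicate 1 (adjusted p up to 0.17), and the fall without 1 d replicate 2 or 2 d replicate 2 (up to 0.54).

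Cebpb was already bright in uninjured muscle and went higher, and Cebpd peaked at 12 h. Cebpb read 3905 and 5099 on the controls, 13174 and 19349 at 12 h, 19557 and 14008 at 1 d, and 14321 and 6754 at 2 d. It stood 3.58-fold over control at 12 h, with a rise of 1.89 (SE 0.27, adjusted p = 1.2e-06) at 1 d and 1.14 (adjusted p = 0.00094) at 2 d, the last not past the threshold without 2 d replicate 1 (adjusted p = 0.12). The 2 d arrays were far apart, the lower being nearer to control. Cebpd read 1652 and 2998 on the controls, 16574 and 8921 at 12 h, 5049 and 6576 at 1 d, and 4652 and 4447 at 2 d. Both 12 h arrays lay above every later array of Cebpd. Its rise was 1.37 (SE 0.29, adjusted p = 0.00031) at 1 d and 1.03 (adjusted p = 0.0049) at 2 d, the latter not past the threshold without control replicate 1 (adjusted p = 0.19). The difference of 1 d from 12 h was -1.08 (SE 0.29).

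Myc stayed level through the first 2 days, while Mafk returned to control within them. Myc read 88 and 99 on the controls, 652 and 748 at 12 h, 647 and 867 at 1 d, and 612 and 547 at 2 d. All 6 arrays of the first 2 days were several times the controls, with a rise of 3.0 (SE 0.40, adjusted p = 5.1e-07) at 1 d and 2.63 (adjusted p = 3.5e-06) at 2 d. Mafk read 1856 and 1572 on the controls, 5026 and 4482 at 12 h, 3170 and 4830 at 1 d, and 1681 and 1418 at 2 d. Its rise was 1.20 (SE 0.20, adjusted p = 1.9e-05) at 1 d; at 2 d its arrays overlapped the controls (-0.15, SE 0.20, adjusted p = 0.67). The fall from 1 to 2 d was -1.34 (SE 0.20, adjusted p = 5.1e-05).

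Counted over the set, 9 of 10 genes were higher at 12 h, where 10.5% of all probe sets were called higher; the members were chosen with this time in view, so nothing is read from that count. At 1 d 9 of 10 rose (16.7% of all probe sets) and at 2 d 8 of 10 (18.6%), with Jun and Mafk not called; these 2 times share the controls with 12 h. All 6 arrays of 12 h to 2 d stood above both controls for 8 genes, against 12.4% of all probe sets, the others being Jun and Mafk. The 12 h arrays are among these 6, so nothing is read from that count either. From 1 to 2 d 3 of 10 fell (Atf3, Egr1 and Mafk; 1.61% of all probe sets called lower), and none rose. At 12 h the array with a full actin ratio, replicate 1, gave on its own a log2 difference of 3.16 for Fos, 4.44 for Fosl1, 3.51 for Junb, 4.21 for Atf3, 4.32 for Egr1, 1.56 for Cebpb, 2.90 for Cebpd, 2.80 for Myc and 1.56 for Mafk. Markers of entering cells moved at 12 h to 2 d, where 17.7% of all probe sets were called higher and 18.5% lower. Over 12 neutrophil genes the summed intensity went from 3456 to 3861 in the controls (S100a9 and Mmp8 at the floor) to 31081 to 113941, and 7 of 12 rose; over 14 macrophage genes it went from 6794 to 9903 (Itgam at the floor) to 47445 to 151890, and 13 of 14 rose. The 16 fibre genes summed to 124234 to 335298, with 9 of 16 lower. The part of these cell numbers in the members' rise was not tested.

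**Figure D1:**
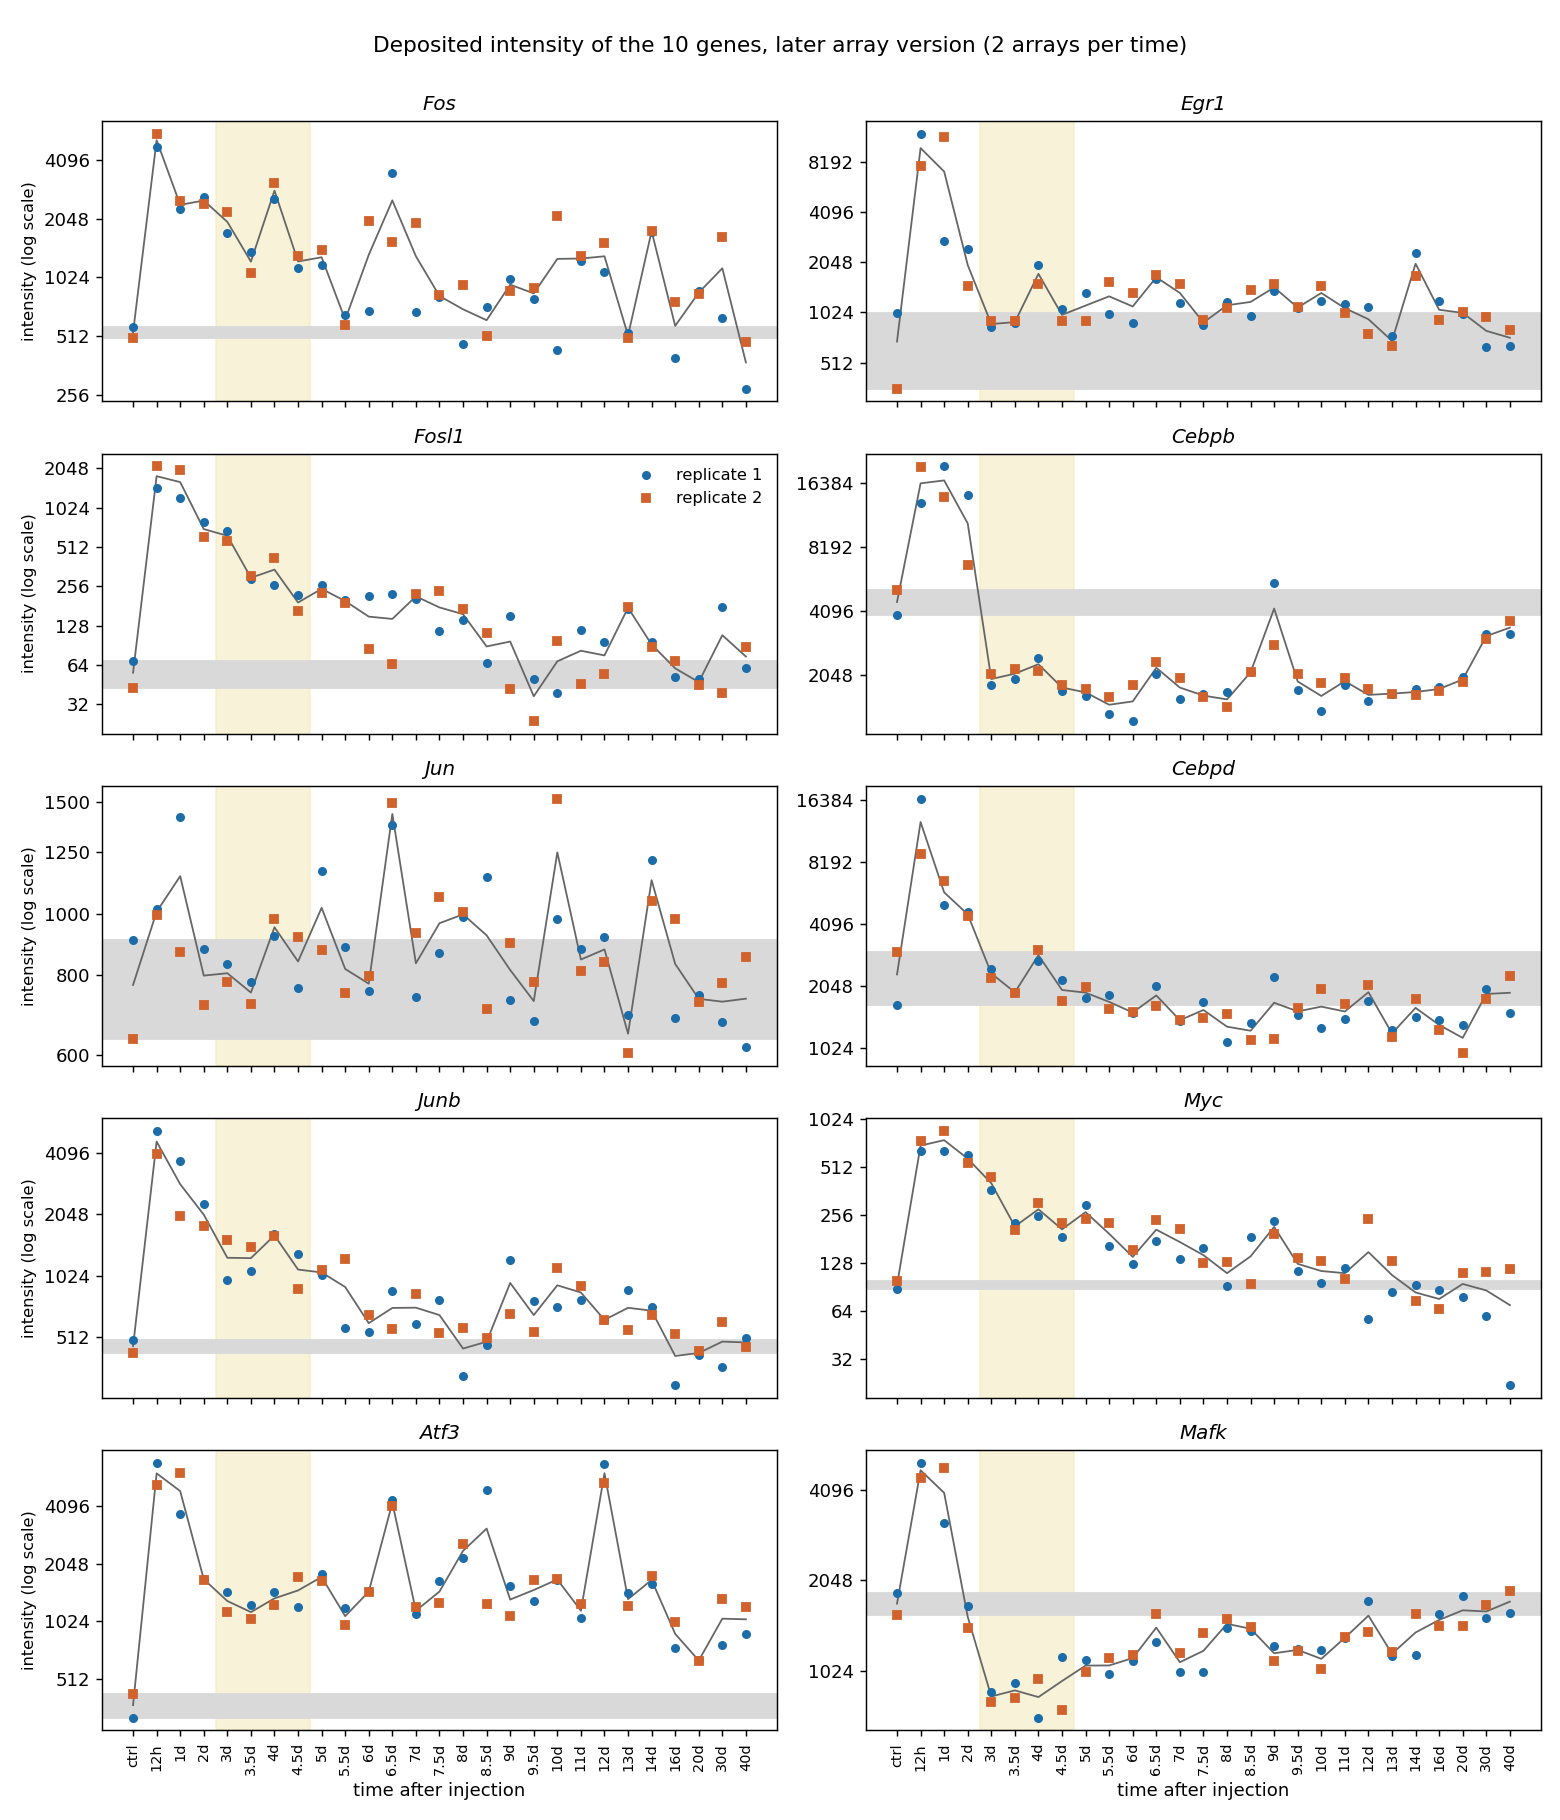
Intensity (log axis, a scale for each gene) against time after injection on the later array version; blue circles are replicate 1, orange squares replicate 2, the grey line joins the means, the grey band spans the 2 controls and the yellow band marks 3 to 4.5 d. Times are equally spaced and not to scale. Cebpb and Mafk lie below the grey band throughout 3 to 4.5 d, whereas Fos, Fosl1, Junb, Atf3 and Myc lie above it and Jun stays near it.

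At 3 to 4.5 d the 10 genes had parted into 3 groups. Cebpb and Mafk were below both controls on all 8 arrays, 5 genes (Fos, Fosl1, Junb, Atf3 and Myc) above both on all 8, and Jun, Egr1 and Cebpd overlapped the controls. Over all probe sets 18.5% lay below both controls on all 8 arrays and 20.9% above; the choice of Cebpb and Mafk used this contrast, so nothing is read from the counts. Cebpb read 1843 and 2068 at 3 d, 1954 and 2191 at 3.5 d, 2468 and 2124 at 4 d, and 1727 and 1841 at 4.5 d. Even its highest array was well under the lower control of 3905, and the mean difference of -1.15 (SE 0.21) is 2.21-fold below control. Mafk read 875 and 810 at 3 d, 931 and 834 at 3.5 d, 717 and 960 at 4 d, and 1139 and 757 at 4.5 d. Its highest array here lay under the lower control of 1572, and the difference of -0.97 (SE 0.16) is 1.96-fold. With the 30 and 40 d arrays in place of the controls the differences were -0.69 for Cebpb and -0.94 for Mafk.

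The genes just outside that pair are Cebpd and Jun. Cebpd ranged from 1734 to 3064 over the 8 arrays (median 2205) against controls of 1652 and 2998, with 1 array above both and none below both, a difference of 0.01 (SE 0.23). That difference turned with the reference, from -0.42 without control replicate 1 to 0.44 without control replicate 2. Jun ranged from 722 to 983 (median 808; 0.13, SE 0.19). Egr1 ranged from 836 to 1964 (median 910), with 3 arrays above both controls, the highest being those of 4 d at 1964 and 1523. The 5 that stayed high were well below their 12 h levels. Fos spanned 1084 to 3123 (median 1555; 1.67, SE 0.42), Fosl1 167 to 677 (median 298; 2.31, SE 0.38), Junb 881 to 1627 (median 1364; 1.46, SE 0.30), Atf3 1048 to 1748 (median 1245; 1.82, SE 0.28) and Myc 188 to 446 (median 242; 1.51, SE 0.32). For Fosl1 the 3 d arrays, 677 and 574, were the highest and those of 4.5 d, 219 and 167, the lowest.

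**Figure D2:**
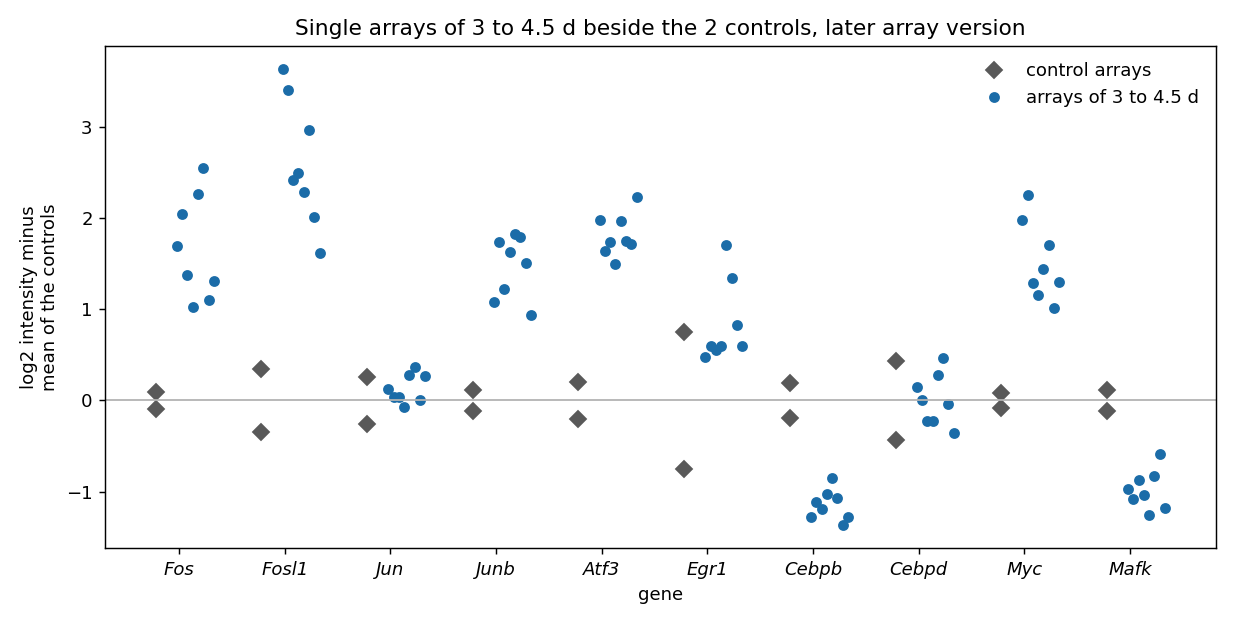
Log2 intensity minus the mean of the 2 controls for each gene: grey diamonds are the controls, blue circles the 8 arrays of 3, 3.5, 4 and 4.5 d from left to right. The circles of Cebpb and Mafk are all below both diamonds, those of 5 genes all above, and those of Jun, Egr1 and Cebpd overlap.

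Neutrophil markers had come down by 3 to 4.5 d, to a sum of 5262 to 10267, while macrophage markers stayed high at 81844 to 132429. Fibre markers were at their lowest range, 101748 to 224749. The 8 genes of satellite cells and myoblasts summed to 25126 to 43864, against 8729 to 9392 in the controls. Fibroblast markers (10 genes) went from 64256 to 88523 in the controls to 89416 to 120688, endothelial markers (9 genes) from 8359 to 9315 to 9687 to 13256, and erythroid markers (4 genes, Epb42 at the floor in the controls) from 38693 to 41828 to 5336 to 27481. Lymphocyte markers (10 genes, of which Cd3e, Cd3g, Cd8a and Cd2 were at the floor in the controls) went from 1547 to 1642 to 1611 to 2275. The fibre markers had already been lower at 12 h to 2 d (124234 to 335298). They summed to 173290 to 355131 at 5 to 7.5 d and 154555 to 479000 at 8 to 10 d. At 11 to 16 d the sum was 156284 to 378029, and at 20 to 40 d 178023 to 445400. The part of fibre loss in the fall of Cebpb and Mafk was not tested.

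After day 5 Cebpb remained under its control level and Atf3 over it. Arrays of these later times were not used to choose the members, but they are set against the same 2 controls. At 5 to 7.5 d Cebpb ranged from 1244 to 2343 (median 1645, n = 12), at 8 to 10 d from 1389 to 5555 (median 1968, n = 10) and at 11 to 16 d from 1536 to 1983 (median 1739, n = 10). It was below both controls on 12 of 12, 9 of 10 and 10 of 10 arrays, the exception being 9 d replicate 1. The log2 change was -1.39 (SE 0.20, adjusted p = 1.8e-06), -1.09 (SE 0.21, adjusted p = 0.00010) and -1.36 (SE 0.21, adjusted p = 7.3e-06). At 20 to 40 d Cebpb read 2009 and 1884 at 20 d, 3198 and 3028 at 30 d, and 3174 and 3648 at 40 d. Its 6 arrays were still below both controls, and the change of -0.70 (SE 0.22, adjusted p = 0.047) was lost in 11 of 18 alternatives, without either control, without any array of 20 or 30 d and without 40 d replicate 1 among them (-0.90 to -0.51, adjusted p up to 0.47). Without the controls in the comparison, Cebpb rose from 11 to 16 d to 20 to 40 d by 0.66 (SE 0.14, adjusted p = 0.00064), with 5 of 6 arrays above all 10 of the earlier window; without the 9 arrays low in the Gapdh ratio the adjusted p was 0.11.

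Mafk came back sooner. It ranged from 1003 to 1578 at 5 to 7.5 d (median 1124), from 1042 to 1518 at 8 to 10 d (median 1226), from 1150 to 1751 at 11 to 16 d (median 1350) and from 1447 to 1887 at 20 to 40 d (median 1642). The share of arrays below both controls went from 11 of 12 and 10 of 10 to 7 of 10 and 2 of 6. Its fall passed at 5 to 7.5 d (-0.57, SE 0.15, adjusted p = 0.0040; 0.13 without control replicate 1) and at 8 to 10 d (-0.43, SE 0.16, adjusted p = 0.035). The latter was lost in 5 of 23 alternatives, without either control, without 9 d or 10 d replicate 2 and without the 9 arrays low in the Gapdh ratio (adjusted p up to 0.36). It did not pass at 11 to 16 d (-0.31, adjusted p = 0.16) or 20 to 40 d (-0.05, adjusted p = 0.95). Cebpd fell in 1 of these windows, 8 to 10 d, where it ranged from 1095 to 2253 (median 1416; -0.63, SE 0.22, adjusted p = 0.031). That call ended in 6 of 23 alternatives, without control replicate 2, 8 d replicate 1, 9 d replicate 2 or 10 d replicate 1, with 30 and 40 d as the reference and without the Gapdh-low arrays (-1.06 to -0.20, adjusted p up to 0.73).

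Atf3 kept above both controls on every array from 12 h to 40 d. It ranged from 977 to 4393 at 5 to 7.5 d (median 1463), from 1090 to 4973 at 8 to 10 d (median 1687), from 743 to 6739 at 11 to 16 d (median 1352) and from 635 to 1343 at 20 to 40 d (median 828), against a higher control of 427. The rise was 2.15 (SE 0.27, adjusted p = 1.7e-07), 2.29 (SE 0.28, adjusted p = 1.1e-07), 2.18 (SE 0.28, adjusted p = 4.0e-07) and 1.24 (SE 0.29, adjusted p = 0.0067). The last did not pass without control replicate 1 or without the Gapdh-low arrays (adjusted p up to 0.16). With 30 and 40 d as the reference the first 3 of these rises were smaller, 0.68 (adjusted p = 0.0097), 0.82 (adjusted p = 0.0033) and 0.71 (adjusted p = 0.015). From 11 to 16 d to 20 to 40 d Atf3 fell by 0.94 (SE 0.18, adjusted p = 0.00032). Egr1 stood at 857 to 1707 at 5 to 7.5 d (median 1254; 0.99, SE 0.33, adjusted p = 0.017) and 979 to 1512 at 8 to 10 d (median 1186; 1.03, SE 0.33, adjusted p = 0.017). Both Egr1 calls rest on control replicate 2, the low one, without which the changes were 0.24 (adjusted p = 0.77) and 0.28 (0.75).

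Fos, Fosl1 and Myc passed at 5 to 7.5 d and in no later window. Fos ranged from 585 to 3512 (median 1014; 1.08, SE 0.41, adjusted p = 0.040), lost in 11 of 25 alternatives (0.64 to 1.21, adjusted p up to 0.23), among them the removal of either control, 5 d replicate 2, 5.5 d replicate 1, 6 d replicate 2, 6.5 d replicate 1 or 7 d replicate 2. Fosl1 ranged from 65 to 261 (median 212; 1.39, SE 0.37, adjusted p = 0.0033; 0.58, adjusted p = 0.053, without control replicate 2). Myc ranged from 126 to 295 (median 170; 0.96, SE 0.31, adjusted p = 0.014), and its adjusted p was up to 0.14 without a control array. Junb lay above both controls on 12 of 12 arrays at 5 to 7.5 d, at 535 to 1232, and did not pass (0.69, SE 0.29, adjusted p = 0.065). It passed in 4 of 25 alternatives, without 5.5 d replicate 1, without 6.5 d replicate 2, with 30 and 40 d as the reference (0.64, adjusted p = 0.021) and with the mean of its probe sets (1.35, adjusted p = 0.00013). That mean was also called for Junb at 8 to 10 d (1.21, adjusted p = 0.00069) and 11 to 16 d (0.94, adjusted p = 0.0094), where its brightest probe set was not. Jun was not called against the controls in any of these windows, with changes of 0.32 (SE 0.18) at 5 to 7.5 d down to -0.06 (SE 0.20) at 20 to 40 d; against 30 and 40 d it was called at 5 to 7.5 d (0.39, adjusted p = 0.028). Fosl1 fell from 5 to 7.5 d to 8 to 10 d, by 0.91 (SE 0.21, adjusted p = 0.014), with 4 of the 10 later arrays at the floor.

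Of the 10 genes, 5 were called higher and 2 lower at 5 to 7.5 d, where 19.0% and 16.1% of all probe sets were. At 8 to 10 d 2 were higher and 3 lower (16.9% and 13.8%), at 11 to 16 d 1 and 1 (13.9% and 10.2%), and at 20 to 40 d 1 and 1 (5.01% and 2.12%). In steps without the controls, 1 of 10 fell from 5 to 7.5 d to 8 to 10 d (1.42% of all probe sets lower), none changed from 8 to 10 d to 11 to 16 d (6.53% in either direction), and 1 rose and 1 fell from 11 to 16 d to 20 to 40 d (8.19% and 11.3%). The lower count at 5 to 7.5 d and the counts after 7.5 d are near the shares of all probe sets and are not a result about the set. The higher count at 5 to 7.5 d holds Fos, Fosl1, Egr1 and Myc, whose calls depended on single arrays, as given above. The values of single genes carry the description.

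**Figure D3:**
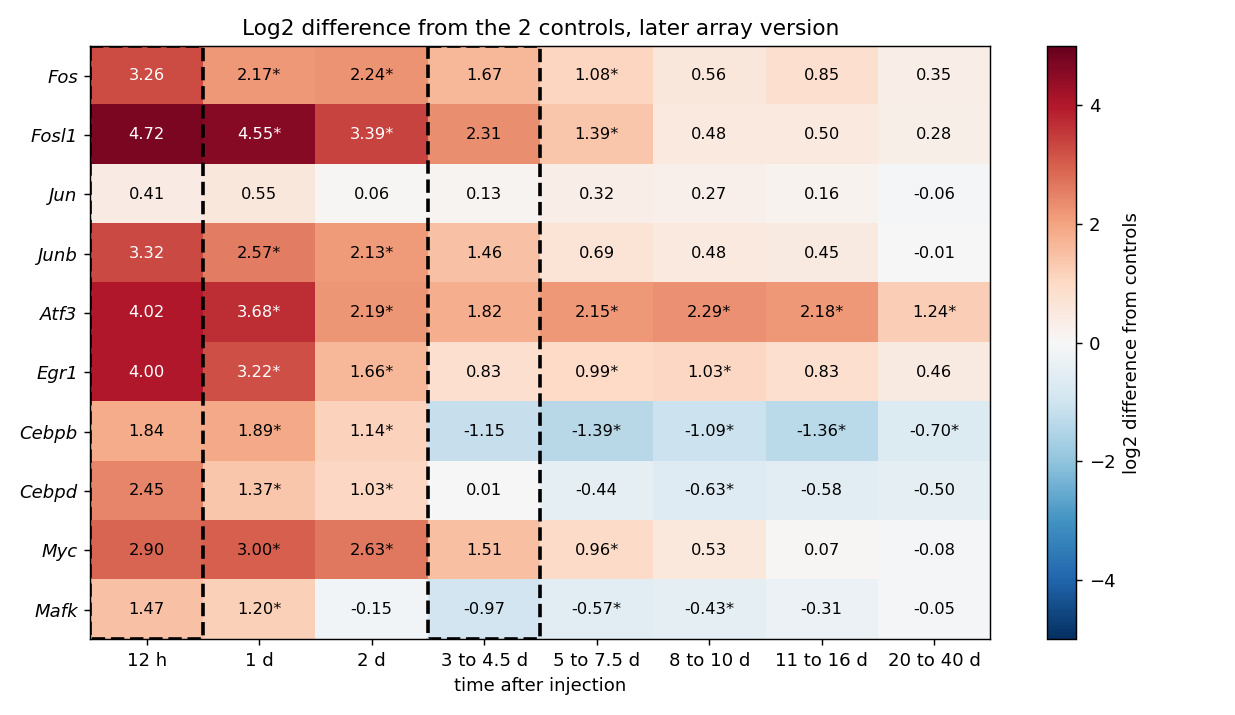
Log2 difference from the 2 controls for each gene (rows) and time or window (columns), later array version; red is higher and blue lower, an asterisk marks an adjusted p under 0.05, and the dashed boxes enclose 12 h and 3 to 4.5 d, which are described without a test. Cebpb and Mafk turn from 1.84 and 1.47 at 12 h to -1.15 and -0.97 at 3 to 4.5 d, and Atf3 is above 1 in every column.

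The order of the 27 group means differed between genes. For Cebpb the control ranked 4 from the top, with 23 groups below it; only 1 d (16780), 12 h (16260) and 2 d (10540) had higher means, and the lowest was 5.5 d (1481). Mafk had the same control rank of 4, with its lowest means at 4 d (838.7) and 3 d (842.2). For Cebpd the control ranked 6. At the other end, the control was the lowest of all 27 groups for Atf3 (374.6) and Egr1 (685.6), and ranked 25 for Fos and Fosl1, 24 for Junb, 23 for Myc and 21 for Jun. Most neighbours in these orders overlapped: of 26 neighbouring pairs, the 2 arrays of the higher group lay above both of the lower in 0 for Jun, 2 each for Egr1, Cebpb and Mafk, 4 each for Fos, Junb, Atf3 and Myc, 5 for Cebpd and 6 for Fosl1. The highest group was 12 h for Fos, Fosl1, Junb, Egr1, Cebpd and Mafk, 1 d for Cebpb and Myc, 12 d for Atf3 (6064, next to 6053 at 12 h) and 6.5 d for Jun (1435).

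The courses were not smooth, and at some times several genes stood above both neighbouring times. These times were noticed after the values were seen and are described without a test. At 4 d both arrays lay above all 4 arrays of 3.5 and 4.5 d for 6 genes (14.5% of all probe sets), with Fos at 2567 and 3123, 2.30-fold over its neighbours' mean, Egr1 at 1.85-fold, and Jun, Junb, Cebpd and Myc at 1.19-fold to 1.49-fold. Both 4 d arrays are among the 8 with a low actin ratio. At 6.5 d 6 genes did so (6.94%), led by Atf3 at 4393 and 4103, which was 3.23-fold over 6 and 7 d, and Jun at 1380 and 1491 (1.78-fold). At 12 d it was 3 genes (7.11%), with Atf3 at 6739 and 5389, 4.85-fold over 11 and 13 d and overlapping its 12 h arrays. At 14 d it was 5 genes (3.58%), with Fos at 1758 and 1771 (3.22-fold), Egr1 at 2326 and 1685 (2.29-fold), Jun and Atf3 (both 1.52-fold) and Cebpd (1.27-fold). The same 5 genes were at 13 d below all arrays of 12 and 14 d (4.51%), Fos at 532 and 503; the 2 comparisons share the 13 and 14 d arrays. The less bright probe set of Atf3 also stood at 2112 and 1372 at 6.5 d and 2630 and 1582 at 12 d, against 196 and 64 on the controls.

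The comparisons of 9 and 10 d with their neighbours were made because earlier results on these data had found these times apart. They are a description, and nothing is read from the counts or the adjusted p-values. At 9 d Cebpb rose over 8.5 and 9.5 d, by 0.99 (SE 0.23, adjusted p = 0.014), which made it 1 of 10 genes, against 1.5% of all probe sets. Cebpb read 2108 and 2099 at 8.5 d, 5555 and 2829 at 9 d, and 1740 and 2069 at 9.5 d. Both arrays of 9 d were above all 4 of the others but far apart, and the call ended without 9 d replicate 1 or 9.5 d replicate 1 (0.50 to 1.48 over 15 alternatives, adjusted p up to 0.39). Summed neutrophil markers spanned 4600 to 50603 at 8 to 10 d, and 4 of the 12 rose at 9 d in the same comparison; their part was not tested. No member changed at 10 d against 9.5 and 11 d, where 0.425% of all probe sets did, though Fos read 437 and 2111 there.

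Further probe sets of the same genes gave early differences of other sizes. The other Junb probe set changed by 5.45 log2 (SE 0.40) at 12 h to 2 d, against 2.67 (SE 0.31) for the brightest, and from 117 and 83 on the controls to 5757 and 6698 at 12 h. The other tested Atf3 probe set changed by 3.76 (SE 0.48), against 3.30 (SE 0.29), and the remaining one was below the floor on all 54 arrays. The dim probe sets of Fos (above the floor on 40 of 54 arrays; 0.38, SE 0.36) and Egr1 (21 of 54; 0.56, SE 0.35) had smaller differences. The size of a rise thus depends on the probe set read, above all for Junb.

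The earlier array version covered 8 of the 10 genes, since the probe sets of Fos and Cebpd are listed there at 0 on all 12 arrays. Its controls and 12 h arrays carry the same sample codes as those of the later version and are not independent of them; its 1, 2, 4 and 10 d arrays carry other codes. At 12 h 6 of 8 genes were called higher (9.05% of all probe sets), given as a description. Atf3 read 457 and 606 on the controls, both under the floor, 7638 and 4872 at 12 h, 3017 and 6065 at 1 d, and 1804 and 1733 at 2 d. It was at least 6.61-fold over control at 1 d (2.73, SE 0.32, adjusted p = 0.00072). Egr1 read 789 and 558, then 11846 and 13509, 3943 and 11642, and 3078 and 1807 at the same times, with 1 control under the floor. Its rise was 3.25 (SE 0.47, adjusted p = 0.0017) at 1 d. Cebpb read 3559 and 5199 on the controls, 12783 and 15449 at 12 h, 16018 and 11259 at 1 d, and 12431 and 6445 at 2 d, a rise of 1.64 (SE 0.33, adjusted p = 0.0056) at 1 d. At 1 d 7 of 8 rose (19.3% of all probe sets), Jun being the other (0.14, adjusted p = 0.79), with Fosl1 at least 2.52-fold, Junb at least 4.29-fold, Mafk at least 3.40-fold and Myc at least 1.39-fold over controls at the floor. The Myc call (adjusted p = 0.025) ended without any single control or 1 d array. At 2 d 4 of 8 rose (23.6%), Junb by 1.48, Atf3 by 1.45, Egr1 by 1.72 and Cebpb by 1.06. The Egr1 and Cebpb calls ended without control replicate 1 or 2 d replicate 1, and that of Egr1 also without control replicate 2. The floor limits this count. Fosl1 read 628 and 562 at 2 d, both under the floor, against controls of -220 and -265. Myc read 582, under the floor, and 689, against controls of 104 and 101. With the halved floor Myc was called (0.97, adjusted p = 0.0031).

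The lower Cebpb level after 2 d was there on other samples too. On the earlier version Cebpb read 2702 and 2237 at 4 d and 1617 and 1684 at 10 d. These 4 arrays lay below both controls and below every array of 12 h, 1 d and 2 d. The step from 2 to 4 d, which involves no control array, was -1.86 (SE 0.33, adjusted p = 0.025), the 1 gene of 8 that fell, against 0.844% of all probe sets. It did not pass without 2 d replicate 1, without either 4 d array or with no filter on dim probe sets (-2.34 to -1.39, adjusted p up to 0.20). At 10 d Cebpb was -1.38 from control (SE 0.33, adjusted p = 0.018; up to 0.11 without control replicate 2 or either 10 d array), the 1 gene of 8 called lower (13.2%), while Atf3 was the 1 called higher (1.40, adjusted p = 0.015; 13.3%). The Atf3 call ended without any single control or 10 d array (adjusted p up to 0.42 over 12 alternatives). For Mafk a fall below control could not be measured on this version: its controls read 174 and 132, under the floor, then 3815 and 1656 at 12 h, 1743 and 2768 at 1 d, 819 and 85 at 2 d, -153 and -136 at 4 d, and 557 and 357 at 10 d. From 1 to 2 d Fosl1 (-1.33, adjusted p = 0.019) and Mafk (-1.59, adjusted p = 0.048) fell, 2 of 8 genes against 1.5%, and both calls ended without 1 d replicate 2 or either 2 d array, that of Mafk also without 1 d replicate 1. No gene of the 8 was called from 4 to 10 d (10.1% of all probe sets in either direction).

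**Figure D4:**
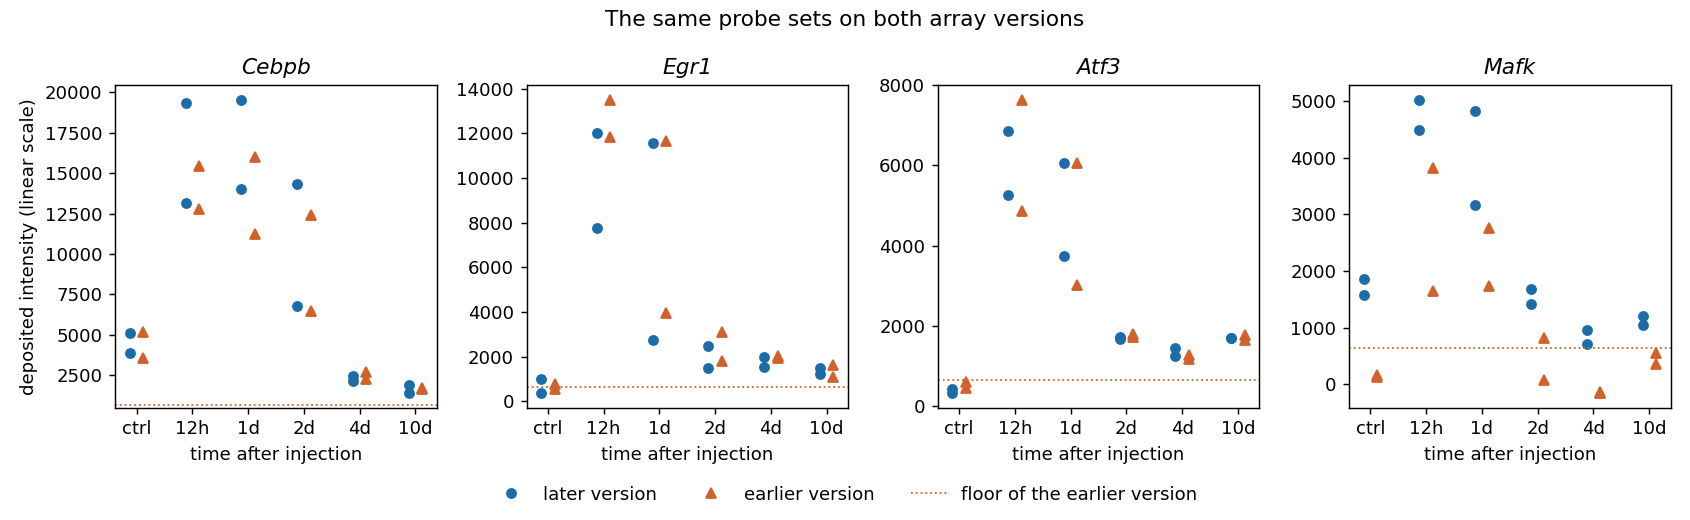
Deposited intensity (linear axis, a scale for each gene) of Cebpb, Egr1, Atf3 and Mafk on the later (blue circles) and earlier (orange triangles) array version at the 6 times both hold, 2 arrays each; the dotted line is the floor of the earlier version, 646.8. Cebpb falls below its controls by 4 d on both versions, and the Mafk controls of the earlier version lie under the floor.

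Other genes of the same pathways were taken from lists. At 12 h to 2 d 17.7% of all probe sets were called higher and 18.5% lower, and the median change of all genes was -0.00. Of 37 other immediate early genes 26 rose and 3 fell (median 1.53), led by Socs3, a brake on cytokine signalling (5.95, SE 0.42, adjusted p = 1.3e-12; 1 control at the floor), and Plaur, the urokinase receptor (at least 28.5-fold, both controls at the floor). Homer1, a scaffold protein of synapses and muscle (-1.89, SE 0.16), and Nr4a1, an orphan nuclear receptor (-1.63, SE 0.37), fell. The AP-1 and ATF relatives of the members did not follow them: 1 of 11 rose, Atf4, the factor of the integrated stress response, by 0.51 (SE 0.12, adjusted p = 0.00070), none fell, and the median was 0.07. Of 15 genes that act upstream of immediate early genes, kinases, a phosphatase and the ETS transcription factors Elk1, Elk3 and Elk4, none rose and 6 fell (median -0.39), with Map2k6, which activates p38, at -2.44 (SE 0.39) and Mapk12, the p38 form of muscle, at -1.79 (SE 0.21).

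Among the partners and targets of the CEBP proteins, the acute phase genes rose and the family itself was mixed. Of 17 acute phase genes that CEBP factors are known to bind 11 rose and none fell (median 2.03), with Lcn2, an iron-binding protein of neutrophils, at 6.5 (SE 0.47, adjusted p = 2.5e-12) and Il1b, an inflammatory cytokine, at least 67.9-fold up. This list shares Lcn2 and Csf3r with the neutrophil markers and Cd14 with the macrophage markers. The part of entering cells in its rise was not tested. In the CEBP family and its partners 3 of 7 rose and 2 fell (median 0.43). Trib3, a pseudokinase (1.27, SE 0.42), and Ddit3, a stress-induced CEBP relative (1.08, SE 0.38), were higher. Dbp (-3.85, SE 0.45) and Tef (-2.96, SE 0.35), zipper factors with a daily rhythm, were lower, and the hour of collection is not given in the sources used here.

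The MYC network was mostly flat, and targets of growth rose in part. Of 12 genes 2 rose and 2 fell (median -0.01): Mxd1, which competes with Myc for Max, was at least 19.5-fold higher and Max rose by 1.00 (SE 0.21), while Zbtb17 (-1.38, SE 0.40) and Mxd4 (-0.73, SE 0.17) fell. Of 26 MYC target genes of growth and ribosome making 11 rose and 1 fell (median 0.45), with Srm, of polyamine synthesis, at 2.12 (SE 0.27), the nucleolar Fbl at 1.45 (SE 0.16) and the chaperonin Hspd1 at -0.74 (SE 0.27). Of 10 MAF and CNC genes 3 rose and 1 fell (median 0.29). Nfe2, the blood-cell partner of small Maf proteins, rose by 2.62 (SE 0.60), Bach1, their repressing partner, rose by 1.59 (SE 0.35), and Nfe2l1 fell by 0.85 (SE 0.15). Of 16 antioxidant genes 7 rose and 2 fell (median 0.33), Hmox1, heme oxygenase, by 3.59 (SE 0.24, adjusted p = 5.7e-13) and Gclm, of glutathione synthesis, by 1.26 (SE 0.20), against Me1, malic enzyme (-1.49, SE 0.22), and Gstm1, a glutathione transferase (-1.09, SE 0.15).

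**Figure D5:**
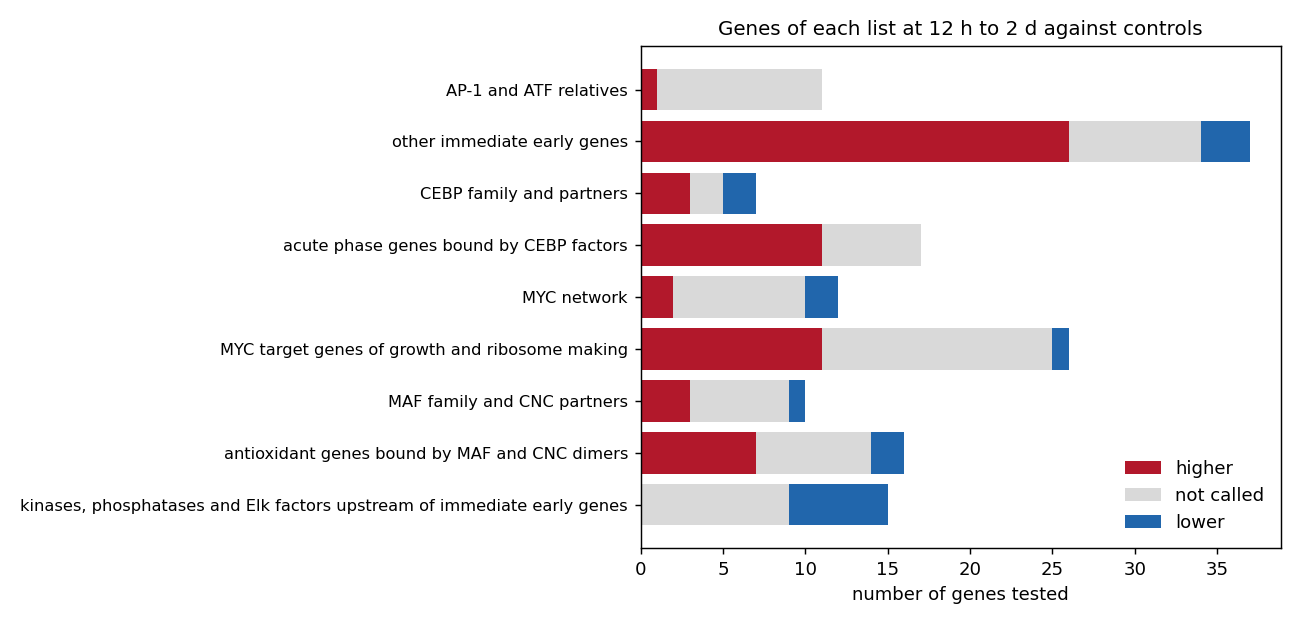
Number of tested genes of each list called higher (red), lower (blue) or not called (grey) at 12 h to 2 d against the controls, later array version, at an adjusted p under 0.05. Most of the other immediate early genes (26 of 37) and of the acute phase genes (11 of 17) are higher, and none of the 15 upstream kinases, phosphatases and Elk factors is.

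By 5 to 7.5 d the other immediate early genes stood at 17 higher and 4 lower (median 0.49, all genes 0.03), the acute phase genes at 3 higher and none lower (0.26), and the list of upstream kinases, phosphatases and Elk factors at 1 of 15 higher and 10 lower (-0.66), where 19.0% of all probe sets were called higher and 16.1% lower. The acute phase share, 3 of 17, is near that of all probe sets and is not a result about that list. By 20 to 40 d 1 of the 37 immediate early genes was higher and 1 lower (0.15, all genes 0.02), against 5.01% and 2.12% of all probe sets, which is again near the background.

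The genes whose course was most like each member's are given by Pearson correlation of the 27 group means (log2), which share arrays, scaling and the first 2 days. Cebpb ran closest to Ltb4r1 (0.92), Selp and Procr (both 0.91), and Cebpd to Mmp8 (0.93), Selp and Ddx3x (both 0.92). Mafk ran closest to Stk40 and Ndel1 (both 0.90) and Grina (0.88). Fosl1 was nearest to Chil3 (0.95), Serpina3n (0.94) and Nop2 (0.93), Myc to Ccr1 (0.95), Mt1 and Serpina3n (both 0.94), and Junb to Vmp1 (0.94), Mt1 and Ifitm6 (both 0.93). Egr1 was nearest to Ier2 (0.93), Klf6 (0.89) and Sphk1 (0.88), Fos to Mcoln2 (0.85), Ptpn2 (0.83) and Socs3 (0.82), and Atf3 to Btg2 and Dusp2 (both 0.73) and Xirp1 (0.72). Jun had the weakest match, with Dnajb1 (0.61), Fgf17 and Atf3 (both 0.60). Among the members themselves Fosl1 and Myc reached 0.92, Junb and Myc 0.91, Cebpb and Cebpd 0.87 and Cebpb and Mafk 0.79, against 0.28 for Fos and Mafk and 0.10 for Jun and Cebpb.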

How the data were processed

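Mouse muscle RNA was measured on 54 arrays of the later and 12 of the earlier version. The values used are the intensities as the authors deposited them, on a linear scale; 16.0% are below 0 on the earlier version. Which software and scaling gave them is not given in the sources used here. The 2% trimmed means were 800.4 to 800.5 on the later and 598.2 to 601.1 on the earlier version, so no further scaling was applied. Gene names came from GEO's platform annotation: 10833 of 12488 later probe sets had 1 symbol, 396 several and 1193 none, and on the earlier version 10276 of 12654 had 1, 363 several and 1949 none.

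Values were raised to a floor (the 20th percentile on the later version; 2 times the root mean square of values below 0 on the earlier), log2 was taken, probe sets above the floor on fewer than 2 arrays and 66 control probe sets were left out, and limma 3.58.1 (R 4.3.3) fitted a mean per time with moderated variance and Benjamini-Hochberg adjustment over each version. The fit was tested on simulated data first. Times were grouped as 12 h to 2 d, 3 to 4.5 d, 5 to 7.5 d, 8 to 10 d, 11 to 16 d and 20 to 40 d. The number of arrays limits the precision.

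The members and lists were chosen with earlier results of these data known. The step from 12 h to 1 d, planned as a test, is described only, since the choice used 12 h. Named genes are the 10 members, up to 2 called rises and 2 called falls per list at 12 h to 2 d, and the 3 genes most correlated with each member. Alternatives were other scalings, floors, filters, variance models, probe set means and references, the code number as a block, and leaving out single arrays. Arrays low in control 3' ratios were left out as alternatives chosen after seeing the data. Figures were drawn with matplotlib 3.10.9.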

Additional observations from a re-analysis of the deposited data

How the results depend on the processing

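No member's change turned its direction under any alternative where it had been called. Across the alternatives other than single arrays left out, 30 values for single genes lost their call and 23 gained one with the same sign. Gains by values whose sign differed from the main fit are not counted in these numbers. An example is Fosl1 at 2 d on the earlier version (-0.00 in the main fit, adjusted p down to 0.021 over the alternatives). With single arrays left out, many more values lost their call than gained one. On the later version the count of members lower at 11 to 16 d was 2 with median scaling and with the variance trend, and that at 20 to 40 d was 0 with quantile normalization, with the halved floor, with the replicate block and without the 9 arrays low in Gapdh 3' signal. Without those 9 arrays the counts were 1 lower at 8 to 10 d, 0 higher at 20 to 40 d, 1 lower from 8 to 10 d to 11 to 16 d, and 0 higher from 11 to 16 d to 20 to 40 d. With a mean over each gene's probe sets they were 3 higher at 11 to 16 d, 2 lower from 11 to 16 d to 20 to 40 d and 2 higher at 9 d. On the earlier version the doubled floor gave 4 higher at 1 d, 1 at 2 d, 0 at 10 d and 0 lower from 1 to 2 d; the halved floor gave 1 lower from 1 to 2 d and 1 from 4 to 10 d; no filter gave 0 lower from 1 to 2 d and 0 from 2 to 4 d; and probe set means gave 0 higher at 10 d and 1 lower from 4 to 10 d. The cause was not tested. Leaving out single arrays, the counts of higher members ranged from 1 to 6 at 5 to 7.5 d, 1 to 2 at 8 to 10 d, 1 to 2 at 11 to 16 d, 0 to 1 at 20 to 40 d, 0 to 1 at 9 d, 1 to 2 from 11 to 16 d to 20 to 40 d and 0 to 1 from 5 to 7.5 d to 8 to 10 d, and those of lower members from 1 to 3 from 1 to 2 d, 1 to 3 at 8 to 10 d, 1 to 2 at 11 to 16 d, 0 to 1 at 20 to 40 d, 0 to 1 from 8 to 10 d to 11 to 16 d and 0 to 1 at 9 d. On the earlier version they ranged from 2 to 4 higher at 2 d, 0 to 0 higher and 0 to 1 lower at 10 d, 0 to 3 lower from 1 to 2 d and 0 to 1 lower from 2 to 4 d. Between times, arrays with the same code number did not deviate together, with correlations of -0.17 to 0.16 (median 0.00) and 5 of 153 pairs over 0.1. The number was therefore not taken as a pairing across times. This check used the 18 later groups that hold both number 1 and number 2. It cannot say whether arrays that share a number within a time came from 1 animal. On the earlier version the floor limits what can be seen below a control signal of 646.8.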

Other observations

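The other immediate early genes were also uneven from time to time, at some of the times at which the members were and at others too. This was noticed after the values were seen, is described without a test, and rests on 2 arrays a time. At 14 d both arrays lay above all 4 arrays of 13 and 16 d for 10 of 37 other immediate early genes, against 3.58% of all probe sets: Egr2, Ier2, Ier3, Btg2, Klf4, Klf6, Ccn1, Ccn2, Per1 and Socs3. At 13 d 10 of the 37 lay below both neighbouring times (4.51%). At 12 d 8 of 37 lay above 11 and 13 d (7.11%), with Btg2, Dusp2, Nr4a1 and Klf4 among them, and at 6.5 d 8 of 37 lay above 6 and 7 d (6.94%), with Btg2, Dusp1, Nr4a1 and Klf4. At 4 d it was 10 of 37 against 14.5%. Where no member lay above both neighbouring times, 9 of the 37 did so at 7 d (13.1%) and 6 of the 37 at 30 d (5.39%).

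Earlier results on these data had already found 9 d apart from its neighbours, so nothing is read from the counts given here for that time. Of the 17 acute phase genes, 8 rose at 9 d against 8.5 and 9.5 d and none fell (median 1.03, all genes -0.00), where 1.5% of all probe sets rose. In the same comparison 4 of 12 neutrophil markers rose; both lists hold Lcn2 and Csf3r, and the part of neutrophils was not tested. Also at 9 d, 13 of 37 other immediate early genes had both 9 d arrays above all 4 neighbouring arrays, against 10.3% of all probe sets.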
